A study of Mus musculus with 8 samples.

Results

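The Fc receptor genes were examined in whole primary tumours formed by 4T1.13 cells with and without suppression of miR-21 activity. The members were the 7 genes Fcgr1, Fcgr2b, Fcgr3, Fcgr4, Fcer1g, Fcgrt and Fcrls, picked by name from the 27179 genes in the table of counts, and each of the 7 passed the filter on low counts. They comprise the receptors for the constant part of IgG that are carried by mouse leucocytes, the signalling chain on which the activating ones depend, the neonatal Fc receptor and an Fc receptor-like gene. RNA sequencing was performed on 4 tumours of the 4T1.13-VC line (VC) and 4 tumours of the 4T1.13-miR-21-KD line (miR-21-KD). 4T1.13 is a metastatic mammary carcinoma line of BALB/c origin, and all 8 tumours grew in the mammary fat pad of female BALB/c mice given 100000 cells and were taken on day 14 according to the labels. Cells of both lines carry the miArrest lentiviral vector with an mCherry reporter and hygromycin resistance, which encodes an RNA that sequesters mature miR-21 in miR-21-KD cells and a scrambled sequence in VC cells. Each line was a pool of clones, and the vector is in the tumour cells while the leucocytes of the host are unmodified. The labels do not give the age of the mice, which by the methods of the study were young adults when injected, and those methods name an earlier day of collection than the labels do. By the account of the study, miR-21-KD tumours were starting to regress when collected, so the line and the stage of the tumour cannot be told apart.

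Fc receptors link antibodies to the cells of the immune system. FcγRI, FcγRIII and FcγRIV, encoded by Fcgr1, Fcgr3 and Fcgr4, bind IgG and signal through the common γ chain, the product of Fcer1g, whose ITAM (an activating tyrosine motif) recruits the kinase SYK. FcγRIIB, the product of Fcgr2b, also binds IgG but bears an inhibitory motif that recruits the phosphatase SHIP1, and the balance between the activating receptors and FcγRIIB sets the response of a macrophage to immune complexes. FcRn, formed by the product of Fcgrt with β2-microglobulin, rescues IgG and albumin from degradation in endosomes. Fcrls encodes an Fc receptor-like molecule with a scavenger receptor domain that is known from microglia and other tissue macrophages. In tumours most of these genes are read from macrophages, monocytes, neutrophils, NK cells and B cells.

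In GRCm38, Fcgr2b (chr1:170960558-170976071, minus strand), Fcgr4 (chr1:171018926-171029761, plus strand), Fcgr3 (chr1:171051169-171065915, minus strand) and Fcer1g (chr1:171229572-171234349, minus strand) lie close together on chromosome 1. Fcrls (chr3:87250736-87263765, minus strand) and Fcgr1 (chr3:96282909-96293969, minus strand) are on chromosome 3, and Fcgrt (chr7:45092993-45103822, minus strand) is on chromosome 7. Fcgr3 and Fcgr2b have identical stretches in their transcripts. Among stretches of 50 bases in the annotated transcripts, 9.58% of those of Fcgr3 and 6.95% of those of Fcgr2b also occurred in another gene. All 166 shared stretches of Fcgr3 were in Fcgr2b, while of the 395 of Fcgr2b those 166 were in Fcgr3 and the rest in other genes, and for stretches of 75 or 100 bases the gene that shared most with Fcgr2b was Cplx2. The other 5 members shared none. A read from a shared stretch could have been assigned to either gene or left out, so a small part of the Fcgr3 and Fcgr2b counts is uncertain. The exons of Fcgr2b also overlap those of Gm38204 on the opposite strand over 155 bases (2.68% of the exon bases of Fcgr2b), and whether the counting used strand is not given in the sources used here.

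The sequences upstream of 4 members are shown because Fcgr3 and Fcer1g were higher in miR-21-KD tumours, whereas Fcgr1 and Fcgr4 did not pass the test and were highest in 1 VC tumour. They were taken from RefSeq (GRCm38.p6), cover up to 150 bases before the start site on the strand of the gene, and are written 5′ to 3′. Capitals mark 3 kinds of motif on either strand: AGGAAG, the core bound by ETS factors such as PU.1 of the myeloid lineage, TTCNNNGAA, the GAS type bound by STAT proteins, and an ISRE type bound by interferon regulatory factors, made of GAAA, any pair of bases and GAAA.
Fcgr1, chr3:96293970-96294119, minus strand: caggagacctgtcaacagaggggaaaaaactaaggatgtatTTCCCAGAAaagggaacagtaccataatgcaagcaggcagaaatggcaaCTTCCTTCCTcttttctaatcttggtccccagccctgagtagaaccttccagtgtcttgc
Fcgr4, chr1:171018776-171018919, plus strand: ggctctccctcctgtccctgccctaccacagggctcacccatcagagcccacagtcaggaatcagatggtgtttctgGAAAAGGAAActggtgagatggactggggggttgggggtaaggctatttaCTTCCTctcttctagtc
Fcgr3, chr1:171059404-171059553, minus strand: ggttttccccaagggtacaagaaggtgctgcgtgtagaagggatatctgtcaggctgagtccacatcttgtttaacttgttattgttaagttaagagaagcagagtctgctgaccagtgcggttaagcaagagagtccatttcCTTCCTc
Fcer1g, chr1:171234366-171234499, minus strand: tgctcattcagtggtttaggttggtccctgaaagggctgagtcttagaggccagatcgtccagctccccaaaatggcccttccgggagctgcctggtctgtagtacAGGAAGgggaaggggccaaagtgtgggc

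The window of Fcgr1 holds a GAS type motif at -109 to -101 from the start site and 2 ETS cores that overlap each other, at -60 to -55 and -56 to -51. That of Fcgr4 holds an ISRE type motif at -73 to -64 and an ETS core at -23 to -18. The windows of Fcgr3 and Fcer1g hold an ETS core each, at -7 to -2 and at -44 to -39, and neither of the other motifs. The Fcgr3 window lies inside the annotated gene, since the start site listed by RefSeq is that of a shorter transcript. Over 250 bases upstream, 5 of the 7 members held an ETS core, 1 a GAS type motif and 1 an ISRE type motif, against 29.5%, 7.02% and 2.98% of 32851 promoters of the same length. Upstream of Fcgr2b and Fcgrt none of the 3 motifs was found, and upstream of Fcrls 4 ETS cores were. The windows of these 3 genes reach into annotated exons and are not shown. These matches describe the letters in the windows only.

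Mature miR-21, the RNA that the vector sequesters, is listed by RefSeq as mmu-miR-21a-5p (chr11:86584120-86584141, minus strand). Its sequence is given with the seed, bases 2 to 8, in capitals, and is followed by the partial matches found in members, whose capitals mark the match to bases 2 to 7.
mmu-miR-21a-5p: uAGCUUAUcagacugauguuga
Fcgr1: accacctgTAAGCTggagtgtg
Fcgr2b, first match: cagctattTAAGCTtgctgtaa
Fcgr2b, second match: ctaaaatgTAAGCTcacaacag

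No 3′ untranslated region of the 7 members held a match to bases 2 to 8 of miR-21, which 8.11% of 21166 annotated genes did. A match to bases 2 to 7 alone was found once in Fcgr1 and at 2 places in Fcgr2b, and 26.0% of genes hold a match to bases 2 to 7, those with a match to bases 2 to 8 included. The gene of the precursor, Mir21a, had 0 counts in each of the 8 tumours, and since the vector acts on the mature RNA these libraries give no check of the suppression.

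The total count per tumour was 12134849 to 13592695 in the VC group and 12550898 to 12783800 in the miR-21-KD group. Values are given in CPM, the CPM unit being counts scaled to a common library size after TMM normalization, and a count of 0 allows up to 0.221 to 0.245 CPM (3 counts, counting error only). Differences are log2 fold changes of miR-21-KD against VC with their standard error (SE) and p adjusted over the 14382 tested genes. VC replicate 4 stood apart in its antibody transcripts. Its Ighg1, the heavy chain of IgG1, was at 9490 CPM, while none of the other 7 tumours exceeded 136 CPM, and its Igkc, the κ light chain, was at 5443 CPM against at most 312 CPM elsewhere. Member results that this tumour moved past the threshold or by over 1.5 times are given with and without it. The study describes the tumours as biological replicates, whereas the labels do not say that each came from another mouse, and the p-values measure the spread between these tumours.

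Of the 7 Fc receptor genes, 4 rose in miR-21-KD tumours (Fcgr3, Fcgr2b, Fcer1g and Fcgrt) and none fell, also at an unadjusted p under 0.05 and by DESeq2 and limma-voom. In whole tumours, a change in the number of cells of a type and a change in RNA per cell cannot be told apart. Of all tested genes, 39.1% passed the same threshold, 19.6% as higher and 19.5% as lower. For Fcgr3, Fcgr2b and Fcgrt, every miR-21-KD tumour was above every VC tumour, as for 16.3% of all tested genes, and no member lay below VC in all miR-21-KD tumours, as 18.9% of tested genes did. The members had a median log2 fold change of 0.56, beside -0.01 for the 14382 genes as a whole. The number of members that rose was 4 with DESeq2, limma-voom, other scalings, other filters and the replicate block. It was 1, Fcgrt, when a change above 1.5-fold was tested, 6 without VC replicate 4, and 3 without VC replicate 2 or 3 or miR-21-KD replicate 1, 3 or 4, each time by the loss of Fcer1g. The share of all tested genes that rose moved as well. It was 2.32% in the 1.5-fold test and 20.4%, 11.6% and 9.9% without VC replicates 4, 2 and 3. Without miR-21-KD replicates 1, 3 and 4 it was 12.9%, 13.6% and 12.1%.

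**Figure D1:**
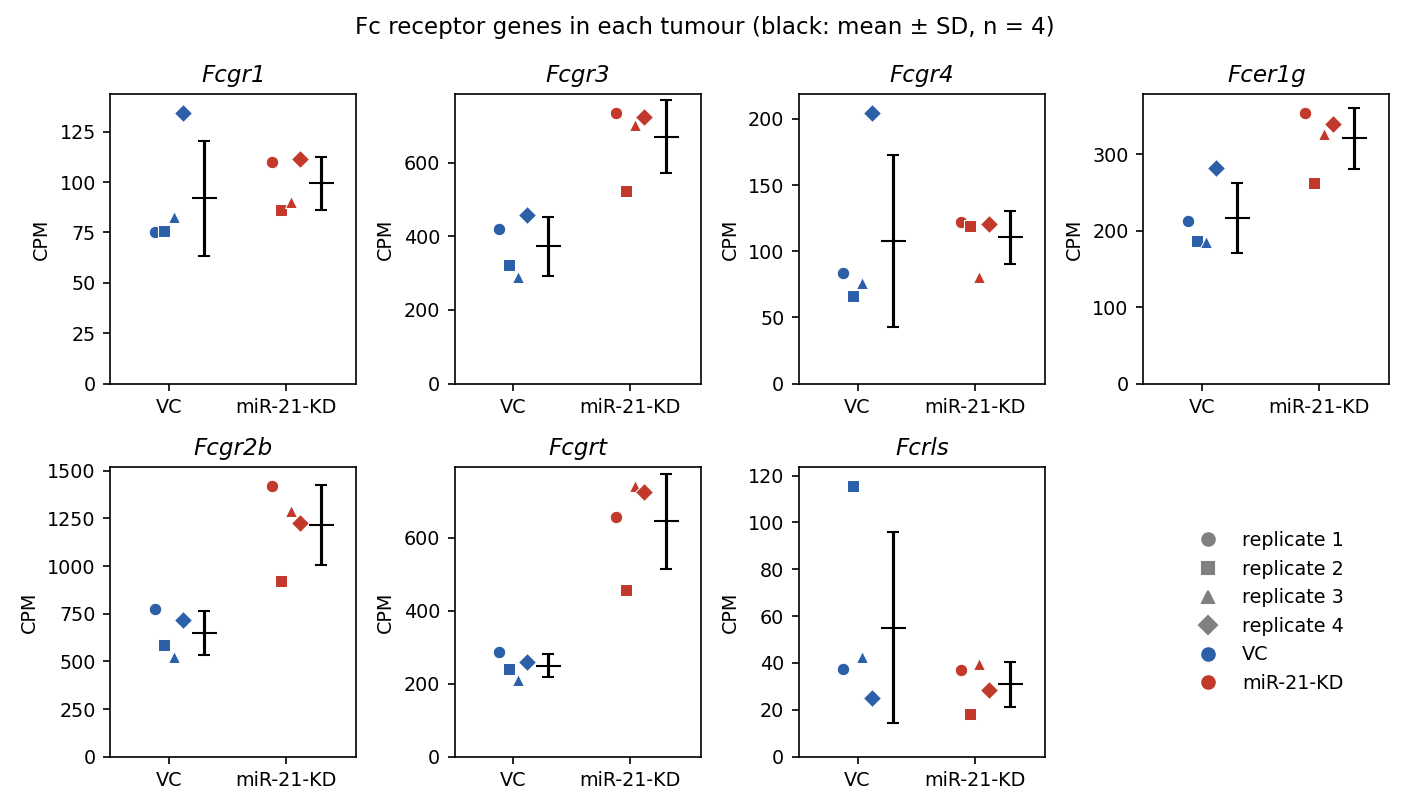
Level of each Fc receptor gene in CPM (linear axes from 0) in the 4 VC (blue) and 4 miR-21-KD (red) tumours, with 1 symbol per replicate number and the mean ± SD in black. The groups are separate for Fcgr3, Fcgr2b and Fcgrt, while VC replicate 4 is the highest tumour for Fcgr1 (134 CPM) and Fcgr4 (204 CPM).

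Among the activating IgG receptors, Fcgr3, which encodes the low affinity receptor FcγRIII of macrophages, neutrophils and NK cells, was the gene that rose. It was at 421, 322, 288 and 459 CPM in VC replicates 1 to 4 and at 734, 523, 701 and 724 CPM in miR-21-KD replicates 1 to 4. The lowest miR-21-KD tumour, replicate 2, still exceeded the highest VC tumour. Fcgr3 was 1.80-fold higher, a log2 fold change of 0.85 (SE 0.18, edgeR adjusted p = 0.0105, n = 4 per group).

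Fcgr1, which encodes the high affinity receptor FcγRI, did not pass the test. It was at 75.1, 75.6, 82.8 and 134 CPM in VC replicates 1 to 4 and at 110, 86.2, 89.9 and 111 CPM in miR-21-KD replicates 1 to 4. Apart from VC replicate 4, which was the highest of all 8, the VC tumours were below each miR-21-KD tumour. The log2 fold change was 0.11 (SE 0.20, edgeR adjusted p = 0.672). Without VC replicate 4 it was 0.35, with an adjusted p = 0.0476.

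Fcgr4, which encodes FcγRIV, a receptor of intermediate affinity on macrophages and neutrophils, did not pass the test either. It was at 83.8, 66.5, 76.0 and 204 CPM in VC replicates 1 to 4 and at 122, 119, 80.4 and 121 CPM in miR-21-KD replicates 1 to 4. VC replicate 4 was again the highest tumour, and miR-21-KD replicate 3 lay within the range of the other VC tumours. The log2 fold change was 0.04 (SE 0.35, edgeR adjusted p = 0.937). Without VC replicate 4 it was 0.55, with an adjusted p = 0.0337, and over the 8 ways of leaving out 1 tumour it ranged from -0.14 to 0.55. In VC replicate 4, Ighg1 and Igkc were at their highest together with Fcgr1 and Fcgr4, and their part in the result was not tested.

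Fcgr2b, the gene of the inhibitory receptor, rose by about as much as Fcgr3. It was at 777, 585, 522 and 715 CPM in VC replicates 1 to 4 and at 1418, 923, 1287 and 1227 CPM in miR-21-KD replicates 1 to 4. The groups did not overlap, and VC replicate 4 lay within the range of its group. Fcgr2b was 1.87-fold higher (log2 fold change 0.90, SE 0.18, edgeR adjusted p = 0.00845). Left-out tumours moved this log2 fold change between 0.80 and 1.01, and that of Fcgr3 between 0.74 and 0.96, with an adjusted p of at most 0.0301 and 0.0340.

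Fcer1g, the gene of the common γ chain, was at 213, 186, 186 and 282 CPM in VC replicates 1 to 4 and at 354, 262, 327 and 340 CPM in miR-21-KD replicates 1 to 4. The groups overlapped, since VC replicate 4 was above miR-21-KD replicate 2. Fcer1g was 1.48-fold higher (log2 fold change 0.56, SE 0.16, edgeR adjusted p = 0.0243). The call was lost in 5 of the 8 fits that left out a tumour, with an adjusted p of up to 0.0730, and without VC replicate 4 the log2 fold change was 0.71 (adjusted p = 0.00948).

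Fcgrt, which encodes the heavy chain of FcRn, changed most among the 7 genes. It was at 286, 241, 210 and 261 CPM in VC replicates 1 to 4 and at 656, 458, 741 and 725 CPM in miR-21-KD replicates 1 to 4. The VC tumours were close to each other, and the lowest miR-21-KD tumour was well above them. Fcgrt was 2.59-fold higher (log2 fold change 1.37, SE 0.17, edgeR adjusted p = 0.00501), and it was the member that also passed the test for a change above 1.5-fold (adjusted p = 0.0284). B2m, the gene of its partner β2-microglobulin, was at 2827 to 4154 CPM in VC and 3153 to 3643 CPM in miR-21-KD tumours, which overlapped fully, with a log2 fold change of 0.02 (SE 0.14, edgeR adjusted p = 0.905).

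Fcrls did not pass the test and was the only member with a lower mean in miR-21-KD tumours. It was at 37.3, 115, 42.4 and 25.1 CPM in VC replicates 1 to 4 and at 37.2, 18.2, 39.8 and 28.3 CPM in miR-21-KD replicates 1 to 4. A single VC tumour, replicate 2, was high, and the other 3 VC tumours overlapped with the miR-21-KD tumours. The log2 fold change was -0.84 (SE 0.47, edgeR adjusted p = 0.176), and without VC replicate 2 it was -0.19.

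**Figure D2:**
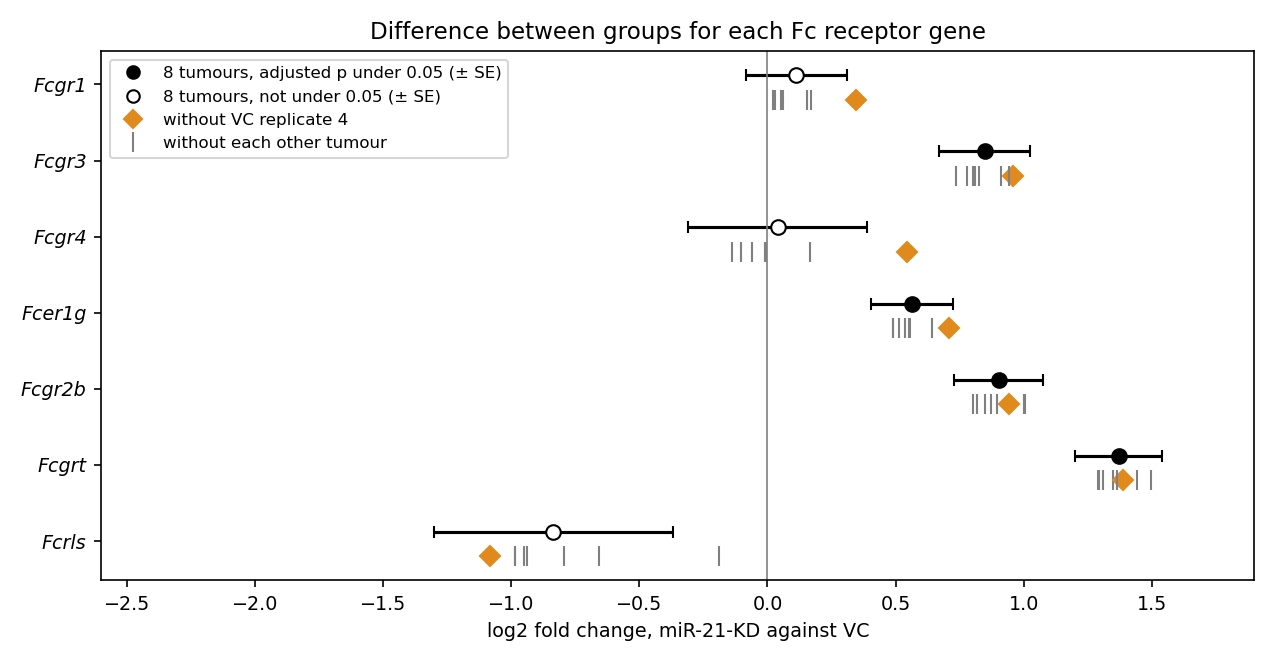
Log2 fold change of miR-21-KD against VC for the 7 genes with all 8 tumours (circles with SE, filled where the adjusted p was under 0.05) and with 1 tumour left out (orange diamonds without VC replicate 4, grey bars without each other tumour). Fcgr1 and Fcgr4 move to 0.35 and 0.55 without VC replicate 4, while Fcgrt stays at 1.29 or above in each of the 8 fits.

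Levels of different genes were compared after division of CPM by the summed length of the annotated exons. In VC tumours the order was Fcer1g (248 CPM per kilobase, SD 52.1), Fcgr3 (215, SD 46.3), Fcgrt (119, SD 15.3), Fcgr2b (112, SD 20.1), Fcgr4 (85.7, SD 51.6), Fcgr1 (35.5, SD 10.9) and Fcrls (23.6, SD 17.5). The ranges of Fcer1g and Fcgr3 overlapped, as did those of Fcgrt, Fcgr2b and Fcgr4 and those of Fcgr1 and Fcrls. The overlap of Fcgr4 came from VC replicate 4, at 163 CPM per kilobase, since the other VC tumours were at 52.9 to 66.7, below each VC value of Fcgr2b and Fcgrt. In miR-21-KD tumours the order was Fcgr3 (386 CPM per kilobase, SD 57.2), Fcer1g (367, SD 46.2), Fcgrt (307, SD 61.9), Fcgr2b (210, SD 36.2), Fcgr4 (88.0, SD 16.0), Fcgr1 (38.4, SD 5.05) and Fcrls (13.2, SD 4.19). There the ranges of neighbours overlapped down to Fcgr2b, and those of Fcgr4, Fcgr1 and Fcrls were separate from their neighbours. The length matters for Fcgr2b: with the longest protein-coding transcript as the length, a choice added after the values were seen, it was at 183 CPM per kilobase in VC tumours, above Fcgrt at 141.

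Of the summed signal per kilobase of the 4 IgG receptor genes, Fcgr3 made up 48.3% (SD 3.31) in VC and 53.4% (SD 2.02) in miR-21-KD tumours, and Fcgr2b 25.5% (SD 3.53) and 28.9% (SD 1.85). The share of Fcgr4 was 18.2% (SD 6.04) and 12.4% (SD 2.99), and that of Fcgr1 was 7.96% (SD 1.31) and 5.32% (SD 0.398). The Fcgr1 share was between 6.14% and 9.16% in VC tumours and between 4.79% and 5.66% in miR-21-KD tumours, so that the groups did not overlap, whereas those of the other 3 genes did. With the longest protein-coding transcript as the length, the Fcgr3 share did not overlap either, at 45.0% to 49.8% in VC and 49.96% to 52.98% in miR-21-KD tumours.

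**Figure D3:**
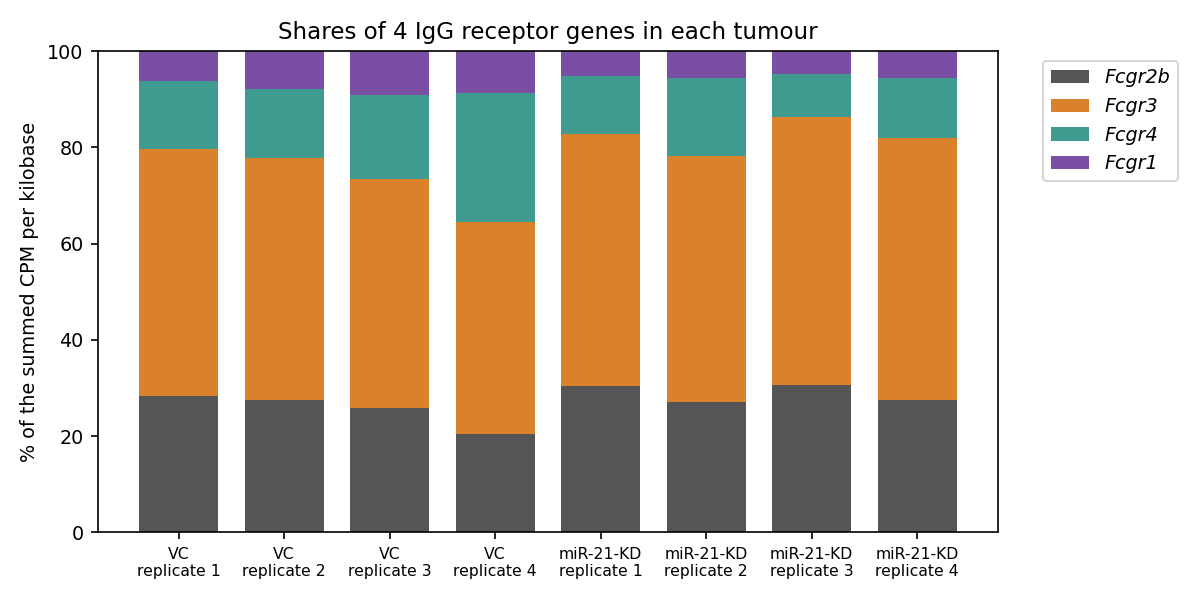
Share of each of 4 IgG receptor genes, in percent of their summed CPM per kilobase of exon, in each of the 8 tumours. The Fcgr1 part (violet) is smaller in each miR-21-KD tumour than in any VC tumour, and VC replicate 4 has the largest Fcgr4 part, 27.0%.

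The activating receptors were next set against the inhibitory one within each tumour, as the difference of log2 CPM, in a family of 3 comparisons. For Fcgr3 relative to Fcgr2b the groups overlapped: the log2 difference was -0.81 (SD 0.11) in VC and -0.85 (SD 0.08) in miR-21-KD tumours, which differed by -0.04 (exact two-sided permutation p = 0.657). Fcgr1 relative to Fcgr2b was -2.85 (SD 0.41) in VC and -3.60 (SD 0.20) in miR-21-KD tumours. This was lower by 0.75 without overlap of the groups, and the exact two-sided permutation p = 0.0286 is the smallest that 4 against 4 tumours can give, while the value adjusted over the 3 comparisons was 0.0857. Fcgr4 relative to Fcgr2b was -2.73 (SD 0.65) in VC and -3.46 (SD 0.44) in miR-21-KD tumours, a difference of -0.72 (exact permutation p = 0.114, adjusted 0.171). None of the 3 ratios passed the threshold after adjustment. In same-numbered pairs Fcgr1 relative to Fcgr2b was lower in the miR-21-KD tumour in 4 of 4 pairs, and Fcgr3 and Fcgr4 in 3 of 4. Without VC replicate 4 the differences of Fcgr1, Fcgr4 and Fcgr3 were -0.61, -0.42 and 0.015.

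Of 14 listed markers of macrophages and monocytes, 12 rose in miR-21-KD tumours and none fell by edgeR, with a median log2 fold change of 0.98, and their summed level was 3553 to 5573 CPM in VC and 7729 to 12161 CPM in miR-21-KD tumours. Among them were Mrc1, the mannose receptor CD206 (log2 fold change 1.24, SE 0.25), Cd163, a scavenger receptor (1.67, SE 0.34), Siglec1 (0.99, SE 0.15) and Itgam, the integrin CD11b (0.98, SE 0.20). By flow cytometry, the study found fewer infiltrating monocytes in miR-21-KD tumours. CD206-positive cells were fewer among its inflammatory monocytes and not among the others. Those are cells counted by surface protein, whereas the values here are RNA of whole tumours, and the difference was not tested. The markers that did not pass, named after their values were seen, were Mertk, a receptor for apoptotic cells (0.57, SE 0.33, edgeR adjusted p = 0.190), and Cx3cr1, the fractalkine receptor, at 5.09 to 38.0 CPM in VC and 2.92 to 10.9 CPM in miR-21-KD tumours (-1.60, SE 0.72, edgeR adjusted p = 0.104). Cx3cr1 passed with DESeq2 (-1.58, adjusted p = 0.0423) and was at -0.94 without VC replicate 4, and Mertk passed without that tumour (0.89, adjusted p = 0.0368). Mertk also passed with limma-voom and sample weights (0.72, adjusted p = 0.0271), and was at 0.28 without miR-21-KD replicate 1 (edgeR adjusted p = 0.496). The number that rose was 6 without VC replicate 3, 9 to 13 without each of the other tumours and 0 when a change above 1.5-fold was tested.

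Each member was therefore also expressed relative to the mean log2 CPM of these 14 markers in the same tumour, a family of 7 comparisons. For Fcgr3 and Fcgr2b the groups overlapped: the log2 difference was 1.24 (SD 0.17) and 1.24 (SD 0.15) for Fcgr3 in VC and miR-21-KD tumours, and 2.05 (SD 0.23) and 2.09 (SD 0.12) for Fcgr2b, with exact two-sided permutation p = 1 and p = 0.743. The groups differed by -0.022 for Fcgr3 and -0.037 for Fcgr2b without VC replicate 4. Fcgr1 was at -0.80 (SD 0.27) in VC and -1.51 (SD 0.24) in miR-21-KD tumours, with no overlap between the groups (difference -0.71, exact permutation p = 0.0286, adjusted over the 7 comparisons 0.1). Fcgr4 was at -0.69 (SD 0.52) and -1.37 (SD 0.47), a difference of -0.68 (exact permutation p = 0.114, adjusted 0.16) that was -0.45 without VC replicate 4.

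Fcer1g relative to the markers was at 0.46 (SD 0.15) in VC and 0.18 (SD 0.18) in miR-21-KD tumours, a difference of -0.28. Fcgrt was at 0.67 (SD 0.24) and 1.17 (SD 0.21), a difference of 0.49, and Fcrls at -1.74 (SD 1.08) and -3.25 (SD 0.28), a difference of -1.51. For each of these 3 genes the exact permutation p was 0.0571 and the adjusted value 0.1. None of the 7 comparisons passed the threshold after adjustment. Within the 4 pairs of same-numbered tumours, a comparison added after the values were seen, Fcgr1 and Fcrls were lower in the miR-21-KD tumour in 4 of 4 pairs, Fcgr4 and Fcer1g in 3 and Fcgrt, Fcgr3 and Fcgr2b in 1. The exact two-sided permutation of signs gave p = 0.125 for Fcgr1 and Fcrls, the smallest that 4 pairs allow, so that this test cannot pass the threshold.

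**Figure D4:**
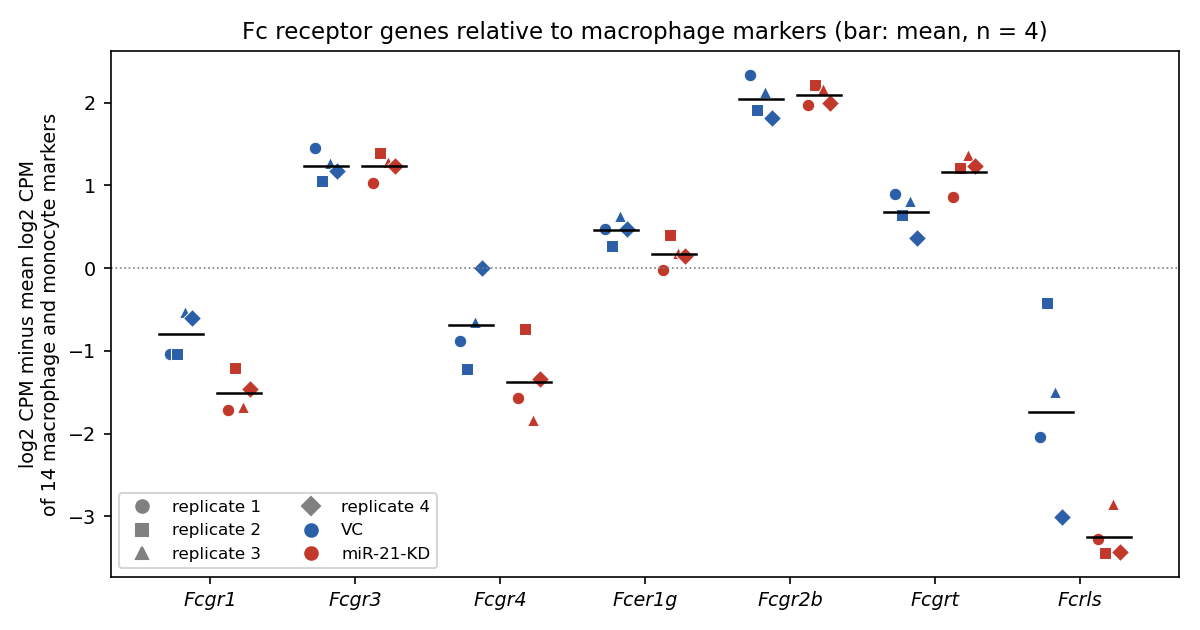
Log2 CPM of each Fc receptor gene minus the mean log2 CPM of 14 macrophage and monocyte markers in the same tumour, by group, with 1 symbol per replicate number and a bar at the mean of 4 tumours. The group means of Fcgr3 and Fcgr2b lie side by side, while Fcgr1 is lower in each miR-21-KD tumour than in any VC tumour.

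Other leucocytes that carry Fc receptors were read from their own markers, none of which was at 0 in all 8 tumours. Of the tested neutrophil markers 0 of 9 passed the test, with a summed level of 281 to 826 CPM in VC and 383 to 733 CPM in miR-21-KD tumours. Their median log2 fold change was 0.83. With summed levels in VC and then miR-21-KD tumours, NK cell markers rose for 2 of 6 (12.9 to 57.8 CPM and 41.6 to 79.8 CPM), dendritic cell markers for 2 of 6 (47.9 to 159 CPM and 156 to 307 CPM), mast cell markers for 1 of 7 (169 to 369 CPM and 269 to 340 CPM) and B cell markers for 0 of 5 (16.6 to 197 CPM and 40.0 to 120.0 CPM). T cell markers rose for 5 of 7 (40.7 to 161 CPM and 144 to 322 CPM). No marker of these 6 lists fell by edgeR, DESeq2 or limma-voom. At an unadjusted p under 0.05, 2 neutrophil markers and 0 B cell markers were higher. DESeq2 called 2 neutrophil markers higher and limma-voom 1, and neither called a B cell marker. With the replicate block 3 neutrophil, 1 B cell and 4 dendritic cell markers rose. Of the other cells of a tumour, fibroblast markers rose for 3 of 5 (1598 to 3721 CPM and 5515 to 11487 CPM) and endothelial markers for 1 of 5 (353 to 629 CPM and 515 to 735 CPM), and of 6 epithelial markers 4 rose and 1 fell (1279 to 2202 CPM and 850.3 to 1544 CPM). Of all tested genes 19.6% rose and 19.5% fell. Near these shares were those of endothelial (20%) and mast cell markers (14.3%) that rose and of epithelial markers (16.7%) that fell. The block added 1 endothelial marker that fell and gave 2 epithelial markers that fell.

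The counts of these markers moved with single tumours. The share of all tested genes that rose moved as well, from 9.9% without VC replicate 3 to 22.5% without miR-21-KD replicate 2. Without VC replicate 4, the numbers that rose were 2 for neutrophil, 5 for NK cell, 4 for dendritic cell, 0 for mast cell, 2 for B cell, 7 for T cell and 0 for endothelial markers. Without VC replicate 3, 1 T cell and 1 NK cell marker rose, and 1 endothelial marker fell. T cell markers rose for 2 without miR-21-KD replicate 1 or 4, NK cell markers for 1 without miR-21-KD replicate 1, dendritic cell markers for 5 without miR-21-KD replicate 2 and neutrophil markers for 2 without VC replicate 1. No mast cell marker rose without VC replicate 2 or miR-21-KD replicate 1, 3 or 4 either. Endothelial markers rose for 2 without VC replicate 1 and for 0 without VC replicate 2 or 3 or miR-21-KD replicate 1, 3 or 4. Epithelial markers rose for 2 without VC replicate 2 or 3, 2 of them fell without miR-21-KD replicate 2, and none fell without VC replicate 1, 2 or 3 or miR-21-KD replicate 3 or 4. Without miR-21-KD replicate 1, 1 fibroblast marker fell. The part of these cell types in the Fc receptor results was not tested.

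The genes around the receptors were described by lists taken from general knowledge. Of 22 genes of activating signalling downstream of the γ chain, 14 rose and 2 fell, with a median log2 fold change of 0.70. These were shares of 63.6% and 9.09%, beside 19.6% and 19.5% of all tested genes. Syk, the kinase that binds the ITAM, was at 60.6 to 125 CPM in VC and 148 to 261 CPM in miR-21-KD tumours without overlap (log2 fold change 1.18, SE 0.27, edgeR adjusted p = 0.0134). The kinase Tec (1.01, SE 0.15), the kinase Fyn (0.70, SE 0.13) and Card9, an adaptor that links ITAM receptors to NF-κB (0.97, SE 0.17), rose as well. Plcg2, the phospholipase that SYK and BTK activate, fell: it was at 130 to 220 CPM in VC and 87.3 to 97.0 CPM in miR-21-KD tumours (log2 fold change -0.99, SE 0.15, edgeR adjusted p = 0.00571). The other gene that fell, Vav3, a guanine nucleotide exchange factor, had a log2 fold change of -0.99 (SE 0.22), and it was named after its values were seen. The number that rose was 7 without VC replicate 3, 8 without VC replicate 2 or miR-21-KD replicate 1 or 4, 9 without miR-21-KD replicate 3 and 0 when a change above 1.5-fold was tested. Of all tested genes 9.9% rose without VC replicate 3, 11.6% without VC replicate 2 and 2.32% in the 1.5-fold test. Without miR-21-KD replicates 1, 3 and 4 the share was 12.9%, 13.6% and 12.1%, against 19.6% with 8 tumours.

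Of 10 genes of inhibitory signalling, 4 rose and 1 fell, with a median log2 fold change of 0.41. These were shares of 40% and 10%, beside 19.6% and 19.5% of all tested genes. Inpp5d, which encodes the SHIP1 phosphatase used by FcγRIIB, was at 85.4 to 143 CPM in VC and 156 to 244 CPM in miR-21-KD tumours without overlap (log2 fold change 0.81, SE 0.19, edgeR adjusted p = 0.0132). Dok2 and Dok3, adaptors that dampen tyrosine kinase signals, rose (0.90, SE 0.20, and 1.06, SE 0.32), as did the ubiquitin ligase gene Cblb (0.74, SE 0.20). The call of Dok3 was lost without each tumour other than VC replicate 4 and miR-21-KD replicate 2, in 6 of 8 fits, with an adjusted p of up to 0.0804. That of Cblb was lost without VC replicate 2 or 3 or miR-21-KD replicate 3, with an adjusted p of up to 0.0632. Ptpn6, the SHP1 phosphatase, did not pass the test (0.07, SE 0.20, edgeR adjusted p = 0.807). It was highest in VC replicate 4, at 197 CPM against 112 to 120 CPM in the other VC tumours. The gene that fell was Ptpn11, the SHP2 phosphatase (-0.26, SE 0.09, adjusted p = 0.0461), also named after its values were seen, and this call was lost with upper-quartile scaling, with both other filters and in 6 of the 8 fits that left out a tumour. The number that rose was 2 without VC replicate 2 or 3 or miR-21-KD replicate 3 and 0 for a change above 1.5-fold. The share of all tested genes that rose in these fits was 11.6%, 9.9%, 13.6% and 2.32%.

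Among 12 tested genes listed as ITAM adaptors or as receptors that pair with the γ chain, 7 rose and none fell, with a median log2 fold change of 1.00. The share that rose was 58.3%, beside 19.6% of all tested genes. The list, called ITAM adaptors below, also holds Hcst, whose product DAP10 has no ITAM. Tyrobp, the adaptor DAP12 of myeloid and NK cells, was at 131 to 249 CPM in VC and 218 to 338 CPM in miR-21-KD tumours, which overlapped (log2 fold change 0.74, SE 0.22, edgeR adjusted p = 0.0285). Its call was lost without each tumour other than VC replicate 4 and miR-21-KD replicate 2, with an adjusted p of up to 0.0786. Clec4d, a C-type lectin that signals through the γ chain, had a log2 fold change of 1.02 (SE 0.26), and Hcst, the adaptor DAP10, one of 1.16 (SE 0.29). Cd247 and Cd3e, chains of the T cell receptor complex, rose by 1.59 (SE 0.33) and 1.53 (SE 0.38) on the log2 scale, and with Cd3d and Cd3g (1.44 and 1.28), named after their values were seen, 4 of the 7 genes that rose were such chains. Cd3e, Cd3d and Cd3g are also on the list of T cell markers. The call of Clec4d was lost without VC replicate 3 or miR-21-KD replicate 4 (adjusted p of up to 0.0555), and that of Cd3e without VC replicate 3 (adjusted p = 0.0525). Those of Cd3d and Cd3g were lost without VC replicate 3 or miR-21-KD replicate 1 or 4, with an adjusted p of up to 0.0655 and 0.0972, and that of Cd3g also without VC replicate 1 or 2 and without a filter. The number that rose was 2 without VC replicate 3, 4 without miR-21-KD replicate 1, 3 without miR-21-KD replicate 4 and 0 for a change above 1.5-fold. The share of all tested genes that rose in these fits was 9.9%, 12.9%, 12.1% and 2.32%.

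**Figure D5:**
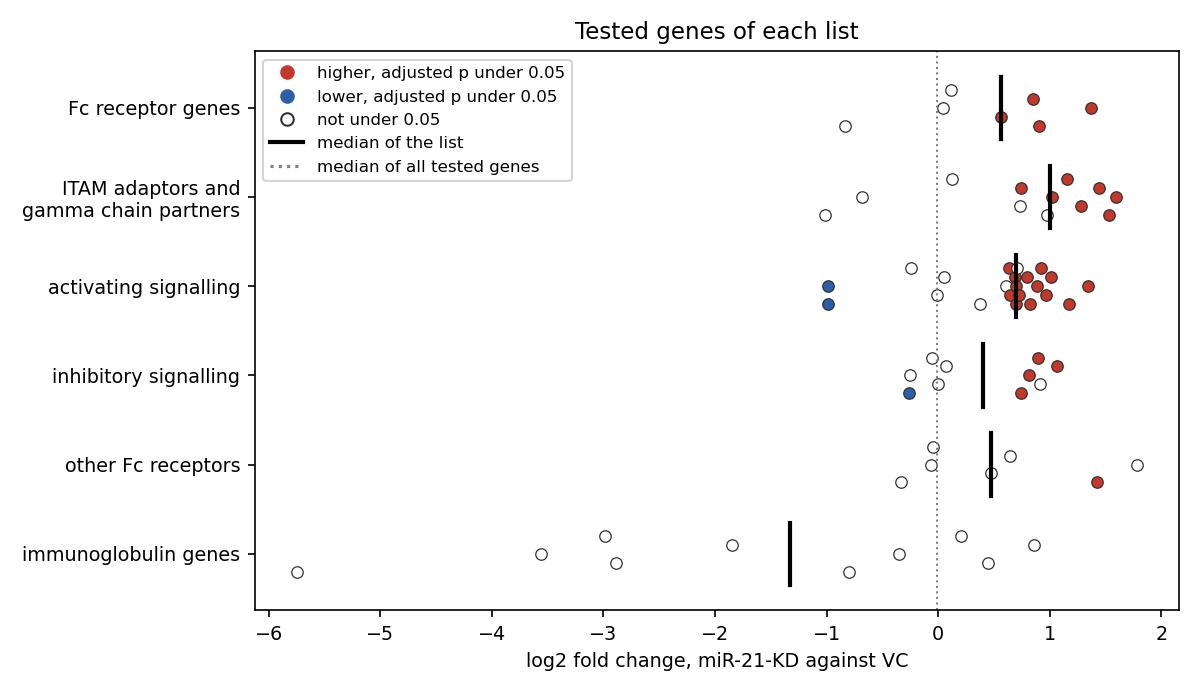
Log2 fold change of miR-21-KD against VC for the tested genes of each list (red higher and blue lower at an adjusted p under 0.05, white not), with the median of the list as a black bar and that of all tested genes as a dotted line. Medians lie at 0.56 for the 7 Fc receptor genes, 1.00 for ITAM adaptors (a list that includes Hcst, which has no ITAM), 0.70 for activating and 0.41 for inhibitory signalling.

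Of 12 other Fc receptor genes, 7 were tested and 1 rose, Fcrlb, an intracellular Fc receptor-like gene. That is 14.3% of the 7, below the 19.6% of all tested genes that rose. Fcrlb was at 33.3, 19.9, 25.1 and 23.4 CPM in VC replicates 1 to 4 and at 61.4, 56.1, 88.4 and 67.2 CPM in miR-21-KD replicates 1 to 4. The groups did not overlap, and the gene was 2.68-fold higher (log2 fold change 1.42, SE 0.19, edgeR adjusted p = 0.00520). With the replicate block 2 of the 7 rose, the second being Pigr, the polymeric immunoglobulin receptor of epithelia, at 0 to 2.04 CPM in VC and 0.157 to 5.28 CPM in miR-21-KD tumours (1.85 with the block, adjusted p = 0.0159, against 1.78 and 0.165 without it). Without VC replicate 4, Fcrla, a B cell gene, was the second (1.73, adjusted p = 0.0143), and without miR-21-KD replicate 2 it was Pigr (adjusted p = 0.0448). Ms4a2, the β chain of the high affinity IgE receptor, was at 0.736 to 1.40 CPM in VC and 0.865 to 3.41 CPM in miR-21-KD tumours (log2 fold change 0.64, SE 0.43, edgeR adjusted p = 0.260). With 1 tumour left out, the log2 fold change of Ms4a2 ranged from 0.14 to 0.87.

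The ligands of the receptors were read from 13 immunoglobulin genes, of which 10 were tested and none passed the test by edgeR, DESeq2 or limma-voom, and 0 had an unadjusted edgeR p under 0.05. Ighg1 had a log2 fold change of -5.75 (SE 2.67, edgeR adjusted p = 0.114) that rested on VC replicate 4. Without that tumour it was 2.90 (adjusted p = 0.0830), and 1 of the 10 genes rose. In VC replicates 1 to 3 Ighg1 was at 8.997, 0.638 and 8.04 CPM, and in miR-21-KD replicates 1 to 4 at 16.7, 16.2, 8.12 and 136 CPM.

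The way the 7 genes varied over the 8 tumours is given as a correlation of log2 CPM, which describes tumours that share their group. Fcgr3 and Fcgr2b were the most alike pair (Pearson r = 0.985, and 0.934 after removal of the group means), and Fcgr3 and Fcer1g were at 0.969 and 0.917. Fcgrt was at 0.971 with Fcgr2b. The values of Fcgr4 moved with VC replicate 4. Fcgr1 and Fcgr4 were at 0.895, and at 0.893 after removal of the group means, and over the 7 tumours other than VC replicate 4 they were at 0.784 and 0.433. Fcgr4 was at 0.279 with Fcgr2b and at 0.177 with Fcgrt, and without that tumour at 0.710 and 0.687. Fcrls had negative values with each of the other 6, from -0.703 with Fcgr4 to -0.354 with Fcgrt. After removal of the group means the values of Fcrls with Fcgrt and Fcgr2b were 0.234 and 0.021, and the other 4 stayed below 0. Over the 7 tumours other than VC replicate 4 these values ran from -0.600 with Fcgr4 to 0.370 with Fcgrt, and that with Fcgr4 alone was below 0.

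Outside the members, the genes with the most similar pattern over the 8 tumours were Impdh1 (0.996), C6 (0.995) and Pde3b (0.995) for Fcgr3, and Dipk2a (0.996), Cd84 (0.995) and Tmcc2 (0.995) for Fcgr2b. For Fcer1g they were Nudt16 (0.998), Btk (0.995) and Tyrobp (0.994), and for Fcgrt Snx8 (0.994), Glul (0.993) and Cmtm6 (0.993). For Fcgr1 they were A530040E14Rik (0.976), Slamf9 (0.971) and Pak1 (0.968), for Fcgr4 Zc3h12d (0.980), Gm11423 (0.968) and Ptpn6 (0.961), and for Fcrls Ski (0.951), Fgf1 (0.920) and Hpgds (0.881). Each of the 12 neighbours of the 4 genes that rose also rose, and none of the 9 neighbours of Fcgr1, Fcgr4 and Fcrls passed the test, which follows from how they were picked. Without VC replicate 4, A530040E14Rik passed (log2 fold change 0.90, adjusted p = 0.0227), and the calls of Nudt16 and Btk were lost without VC replicate 2 or 3 or miR-21-KD replicate 1, 3 or 4, the same 5 tumours as for Fcer1g.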

How the data were processed

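RNA sequencing of 8 whole tumours was analysed, 4 per group by the labels. The deposited values are raw counts per gene, listed under Entrez identifiers and not normalized by the authors. Their processing notes name Subread, featureCounts, edgeR, limma and the build mm10, without versions. Symbols from GRCm38.p6 matched 25275 of the 27179 identifiers, and GENCODE models gave exons and transcripts. Genes were kept by filterByExpr (minimum count 10, minimum total 15) and scaled by TMM, and the robust quasi-likelihood test of edgeR 4.0.16 in R 4.3.3 compared the groups, with Benjamini-Hochberg adjustment over the 14382 tested genes and a threshold of 0.05. Log2 CPM used a prior count of 2. Single values were compared by exact two-sided permutation tests.

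The members and lists were chosen with earlier results of these data known. The text names the members, B2m, Tyrobp, Syk, Inpp5d, Ptpn6, Ptprc, the 4 genes of smallest p in each signalling, receptor, immunoglobulin and macrophage list, and for each member the 3 genes of highest correlation. Other genes are said to be named after their values were seen. From the lists of other cell types only counts, shares, summed levels and medians are given. Ptprc, the leucocyte antigen CD45, had a log2 fold change of 0.99 (SE 0.25, edgeR adjusted p = 0.0180, and 0.0536 without VC replicate 3), and served as an alternative reference. Alternatives were DESeq2 1.42.0, limma-voom (limma 3.58.1) with and without sample weights, other scalings and filters, a test for changes above 1.5-fold, a replicate block and each tumour left out. The script was tested on simulated counts.

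Replicates differed by more than sampling noise (chi-square per degree of freedom 12.6 to 70.7 between tumours of the same group). Tumours of both groups are numbered 1 to 4 in the labels. After removal of group means, same-numbered tumours correlated at 0.272, 0.421, 0.175 and 0.376, and differently numbered tumours at -0.393 to 0.393. Of the 8 tumours, 5 correlated best with their own number. Each same-numbered pair was over 0.1, but some differently numbered pairs were higher, and the labels do not say what the numbers share. These values do not settle whether the tumours are paired. The main fit and the 4 against 4 permutation tests did not use the numbers. The replicate block was an alternative, and its values are given where they change a call or move a count by over 1.5 times.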

Additional observations from a re-analysis of the deposited data

Results flagged for a closer look

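Of 34 groups of 4 tumours examined, 5 had a tumour far from the other 3 by Dixon's criterion at 95%, which chance gives for about 1 in 20 independent groups. The 34 groups share genes and tumours and are not independent, so 5 of 34 cannot be set against that rate. Fcgr1 was at 134 CPM in VC replicate 4, against 75.1 to 82.8 CPM in the other VC tumours. Fcgr4 was at 204 CPM in the same tumour, against 66.5 to 83.8 CPM. The log2 CPM of Fcgr3 minus that of Fcgr2b was -0.64 there, against -0.88 to -0.86 in the other VC tumours. In the miR-21-KD group, Fcgr3 was at 523 CPM in replicate 2, against 701 to 734 CPM, and Fcgr4 at 80.4 CPM in replicate 3, against 119 to 122 CPM. VC replicate 4 accounts for 3 of the 5 values and is the tumour with the high immunoglobulin transcripts.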

How the results depend on the processing

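The calls of Fcgr3, Fcgr2b and Fcgrt held under every alternative except the test for a change above 1.5-fold, in which 1 of the 7 members, Fcgrt, passed. With 1 tumour left out, between 3 and 6 members rose. In that 1.5-fold test 0 genes of activating signalling rose and 0 fell, 0 of inhibitory signalling rose and 0 fell, and 0 ITAM adaptors rose. Of the cell type markers, 1 dendritic cell and 1 epithelial marker rose in it and 0 of the other 8 lists, and 0 markers fell. In inhibitory signalling the number that fell was 0 with upper-quartile scaling, without a filter and when each tumour had to hold 10 counts or more, and 2 with sample weights. Sample weights gave 2 other Fc receptors and 1 immunoglobulin gene that rose, and the replicate block gave 2 other Fc receptors. The block changed no call among the 7 members, and of the other genes named it changed that of Pigr. Sample weights gave 6 neutrophil, 1 B cell, 5 NK cell and 6 dendritic cell markers that rose, DESeq2 gave 4 NK cell and 5 dendritic cell markers, and limma-voom 4 NK cell markers. The number of epithelial markers that fell was 2 with DESeq2 and with weights and 0 without a filter, and with weights 1 fibroblast marker fell and 2 endothelial markers rose. For the ratios within tumours the 4 same-numbered pairs allow no p below 0.125, so pairing gives no test of them. Over all genes, 334 rose and 208 fell by the test for a change above 1.5-fold, and with 1 tumour left out 1449 to 3290 rose and 1487 to 3550 fell, against 2826 and 2800. With 1 tumour left out, the numbers that rose were 7 to 17 for activating signalling, 2 to 4 for inhibitory signalling, 2 to 9 for ITAM adaptors, 1 to 2 for other Fc receptors and 0 to 1 for immunoglobulin genes, and 0 to 1 inhibitory genes fell.

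The direction reversed for the following values. The log2 fold change of B2m was -0.000262 with scaling by library size and -0.00804 without a filter. That of Ighg1 was 1.32 with sample weights and 0.00565 with the replicate block, that of Ighg3 1.43 with limma-voom and 3.49 with weights, that of Igkc 0.10, 1.16 and 0.47 with limma-voom, weights and the block, and that of Ighg2b 1.09 and 1.44 with limma-voom and weights. With 1 tumour left out, the log2 fold change ranged from -0.14 to 0.55 for Fcgr4, -0.057 to 0.13 for B2m, -0.022 to 0.30 for Ptpn6, -7.44 to 2.90 for Ighg1, -4.16 to 1.69 for Ighg3, -3.31 to 1.58 for Igkc, -3.68 to 2.67 for Ighg2b, -0.026 to 0.90 for A530040E14Rik, -0.11 to 1.03 for Slamf9 and -0.058 to 0.44 for Zc3h12d. The difference relative to the macrophage markers ranged from -0.062 to 0.069 for Fcgr3 and -0.037 to 0.14 for Fcgr2b, which was at -0.13 with Ptprc as the reference, and that of Fcgr3 relative to Fcgr2b from -0.072 to 0.015. The cause was not tested. The depth leaves genes such as Pigr and Ms4a2 with few counts per tumour.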

Other observations

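Immunoglobulin genes other than Ighg1 also varied widely among tumours, and Ighm, Igha, Jchain and Ighg2c were named after their values were seen. Ighm, the μ heavy chain, was at 397, 63.2, 84.1 and 757 CPM in VC replicates 1 to 4 and at 859, 128, 212 and 575 CPM in miR-21-KD replicates 1 to 4, so that replicates 1 and 4 were the high ones in both groups. Igha, the heavy chain of IgA, was between 0.160 and 29.1 CPM in VC and between 10.4 and 29.2 CPM in miR-21-KD tumours. Jchain, which joins IgM and IgA into polymers, was at 1040 CPM in VC replicate 4 and between 5.19 and 125 CPM in the other 7 tumours. Ighg2c, of another IgG class, was at 149 CPM in VC replicate 4 and at most 16.1 CPM elsewhere, and the highest other tumour for Ighg1, Ighg2b, Ighg2c and Ighg3 was miR-21-KD replicate 4.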
